A study of Homo sapiens with 6 samples.

Results

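The genes described are KEAP1, NFE2L2, BACH1 and 6 antioxidant genes, HMOX1, NQO1, GCLC, GCLM, SRXN1 and TXNRD1, taken by gene symbol from the count tables of LS 174T cells. They are 9 of the 24462 symbols in the tables, each on 1 line, and all 9 had enough reads to be tested. LS 174T is a human colorectal adenocarcinoma line with goblet cell features. Untreated cells (3 control libraries) were compared with cells given propionate, a short-chain fatty acid made by gut bacteria, at 4 mM for 4 h (3 propionate libraries). Both groups were seeded in serum-containing medium with antibiotics. Only 1 line was used, so the values describe that line.

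NFE2L2 encodes NRF2, a basic leucine zipper factor that switches on genes for glutathione synthesis, thioredoxin recycling and quinone reduction. KEAP1 holds NRF2 in the cytoplasm and presents it to the CUL3 ubiquitin ligase for degradation until oxidants or electrophiles modify its cysteines. NRF2 then binds antioxidant response elements together with a small MAF protein, while BACH1 occupies many of the same elements as a repressor and is displaced by heme. Much of this control acts on the proteins, which were not measured here. In colon epithelium the pathway handles oxidants from inflammation, diet and bacterial metabolites.

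The core of the antioxidant response element was searched as TGACNNNGC, TGAGNNNGC and TGATNNNGC on both strands of the start-site windows given by RefSeq (GRCh38.p14), each reaching from 250 bases before to 50 bases after an annotated start. Matches to the 3 forms may overlap. Windows were found for 8 of the 9 genes, 13 windows in all, and none was found for HMOX1. A match was present in 6 of the 13 windows, and in 34.6% of all 35116 windows. The windows of BACH1, GCLC and SRXN1 had no match, nor did a further window of KEAP1 and a further window of NFE2L2, which are not shown. Also not shown are the NQO1 window, with 1 match (TGAGGCTGC), and a further TXNRD1 window with 2 matches. Sequence outside the windows was not searched, so a gene without a match may have an element elsewhere. The form TGACNNNGC was present in 4 of the 13 and in 13.3% of all. KEAP1 and GCLM are shown because both carry the same 9 bases, TGACTAAGC, on the strand opposite to the gene (printed as its reverse complement) close to the start, at bases -31 to -23 in KEAP1 and -34 to -26 in GCLM. These 9 bases were in 36 windows, or 0.103% of all. NFE2L2 is shown because it fell as KEAP1 did, and TXNRD1 as a target with matches to 2 forms. Matches are in capitals, each line reads 5′ to 3′ along the gene, and a match is a description of the letters, not of binding.
KEAP1, chr19:10502722-10503021, minus strand: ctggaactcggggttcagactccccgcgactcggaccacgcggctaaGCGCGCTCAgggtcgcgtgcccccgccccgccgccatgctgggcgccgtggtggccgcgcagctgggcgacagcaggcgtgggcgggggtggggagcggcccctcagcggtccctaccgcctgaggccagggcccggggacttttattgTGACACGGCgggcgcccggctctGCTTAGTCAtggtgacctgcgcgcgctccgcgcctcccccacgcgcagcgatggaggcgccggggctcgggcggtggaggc
GCLM, chr1:93909381-93909680, minus strand: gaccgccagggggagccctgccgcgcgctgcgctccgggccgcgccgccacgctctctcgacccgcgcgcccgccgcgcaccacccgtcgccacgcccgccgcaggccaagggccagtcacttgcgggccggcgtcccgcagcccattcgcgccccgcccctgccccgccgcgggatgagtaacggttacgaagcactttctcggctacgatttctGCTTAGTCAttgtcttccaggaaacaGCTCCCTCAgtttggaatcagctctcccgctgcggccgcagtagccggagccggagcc
NFE2L2, chr2:177264082-177264381, minus strand: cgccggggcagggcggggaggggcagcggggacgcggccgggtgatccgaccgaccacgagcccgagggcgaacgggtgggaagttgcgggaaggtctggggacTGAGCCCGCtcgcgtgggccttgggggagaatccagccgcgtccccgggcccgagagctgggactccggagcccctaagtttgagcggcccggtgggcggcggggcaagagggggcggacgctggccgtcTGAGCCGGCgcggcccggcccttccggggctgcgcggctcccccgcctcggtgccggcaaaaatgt
TXNRD1, chr12:104286782-104287081, plus strand: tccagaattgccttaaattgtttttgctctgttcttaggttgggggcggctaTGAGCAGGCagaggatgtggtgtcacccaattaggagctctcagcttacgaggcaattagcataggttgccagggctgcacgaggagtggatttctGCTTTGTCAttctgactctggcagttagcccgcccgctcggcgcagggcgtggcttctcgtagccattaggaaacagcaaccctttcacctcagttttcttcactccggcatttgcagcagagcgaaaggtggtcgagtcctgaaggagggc

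The libraries held between 11603288 and 12746170 reads, so 3 reads corresponded to 0.235 to 0.259 reads per 1000000 of the unscaled library total. All other levels are in CPM, which are reads per 1000000 of a TMM-scaled library total. All 10 markers of colon epithelium and goblet cells were detected, with a summed level of 4319 to 5242 CPM in control and 5122 to 5758 CPM with propionate, although KRT20 averaged only 1.32 CPM. Of 5 leukocyte markers PTPRC had 0 to 2 reads per library and CD3E none, and the summed level was 13.0 to 19.4 CPM in control and 15.9 to 17.8 CPM with propionate, most of it CD68. The 4 endothelial markers summed to at most 0.175 CPM, with CDH5, VWF and KDR at 0 reads. The 5 fibroblast markers summed to 1.58 to 4.02 CPM in control and 4.57 to 5.71 CPM with propionate, with DCN at 0 reads and COL1A1 at 8 to 13 reads in control and 37 to 55 reads with propionate. The part of these low signals in the results below was not tested. No label states that replicate libraries are separate cultures. The p-values therefore measure the spread between libraries, which may be technical.

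KEAP1 and NFE2L2 fell with propionate and HMOX1 rose, while the other 6 genes did not pass the test. Thus 3 of the 9 genes were called (33.3%), against 34.2% of all 13605 tested genes. A gene was called at a p under 0.05 in edgeR's quasi-likelihood test after Benjamini-Hochberg adjustment. By direction, 1 of 9 was higher and 2 of 9 were lower, where 17.2% and 17.0% of all tested genes were. The groups did not overlap in 4 of the 9 genes, and in 45.2% of all tested genes. These shares are near the background, so the count of called genes says nothing particular about the pathway, and the account rests on the single genes. The median log2 fold change of the 9 was -0.16, and that of all tested genes was -0.01. These calls come from a fit that does not pair libraries by replicate number. With replicate number entered as a block, 5 of the 9 genes were called, beside 44.5% of all tested genes.

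KEAP1, the NRF2 inhibitor, fell 2.59-fold. Its level was 124.2, 116.4 and 124.5 CPM in the control libraries and 47.2, 45.4 and 48.3 CPM with propionate. Every propionate library was below every control, and the spread within each group was small, with means of 121.7 ± 4.60 and 47.0 ± 1.46 CPM (SD, n = 3). The log2 fold change was -1.37 (SE 0.0868, 95% interval -1.56 to -1.19, edgeR adjusted p = 1.88e-09). Only 87 of the 13605 tested genes had a log2 fold change as low as this or lower. In bulk RNA a lower level in each cell and fewer cells with the transcript cannot be told apart.

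NFE2L2, which encodes NRF2 itself, fell 1.66-fold. The 3 control libraries held 103.5, 111.5 and 123.3 CPM and the propionate libraries 66.9, 61.0 and 75.7 CPM. All propionate values lay below all control values, with means of 112.8 ± 10.0 and 67.9 ± 7.42 CPM (SD, n = 3). Its log2 fold change of -0.73 (SE 0.0981, 95% interval -0.94 to -0.53) had an edgeR adjusted p of 1.21e-05. A log2 fold change as low or lower was found in 744 of the 13605 tested genes. NFE2L2 shares 54 exon bases with AGPS on the opposite strand in GENCODE release 29. It also shares 1054 with AC019080.1 on the same strand and 190 with AC079305.1 on the opposite strand, which are not in the count tables. Whether reads were counted by strand is not given in the sources used here. Among the antioxidant genes, SRXN1 shares 2292 exon bases with AL121758.1 and GCLC shares 529 with AL033397.1, both on the same strand. NQO1 shares 575 with AC092115.2 and GCLC shares 7 with AL033397.2, both on the opposite strand. These overlapping genes are not in the count tables either, and the effect on the counts was not tested.

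**Figure D1:**
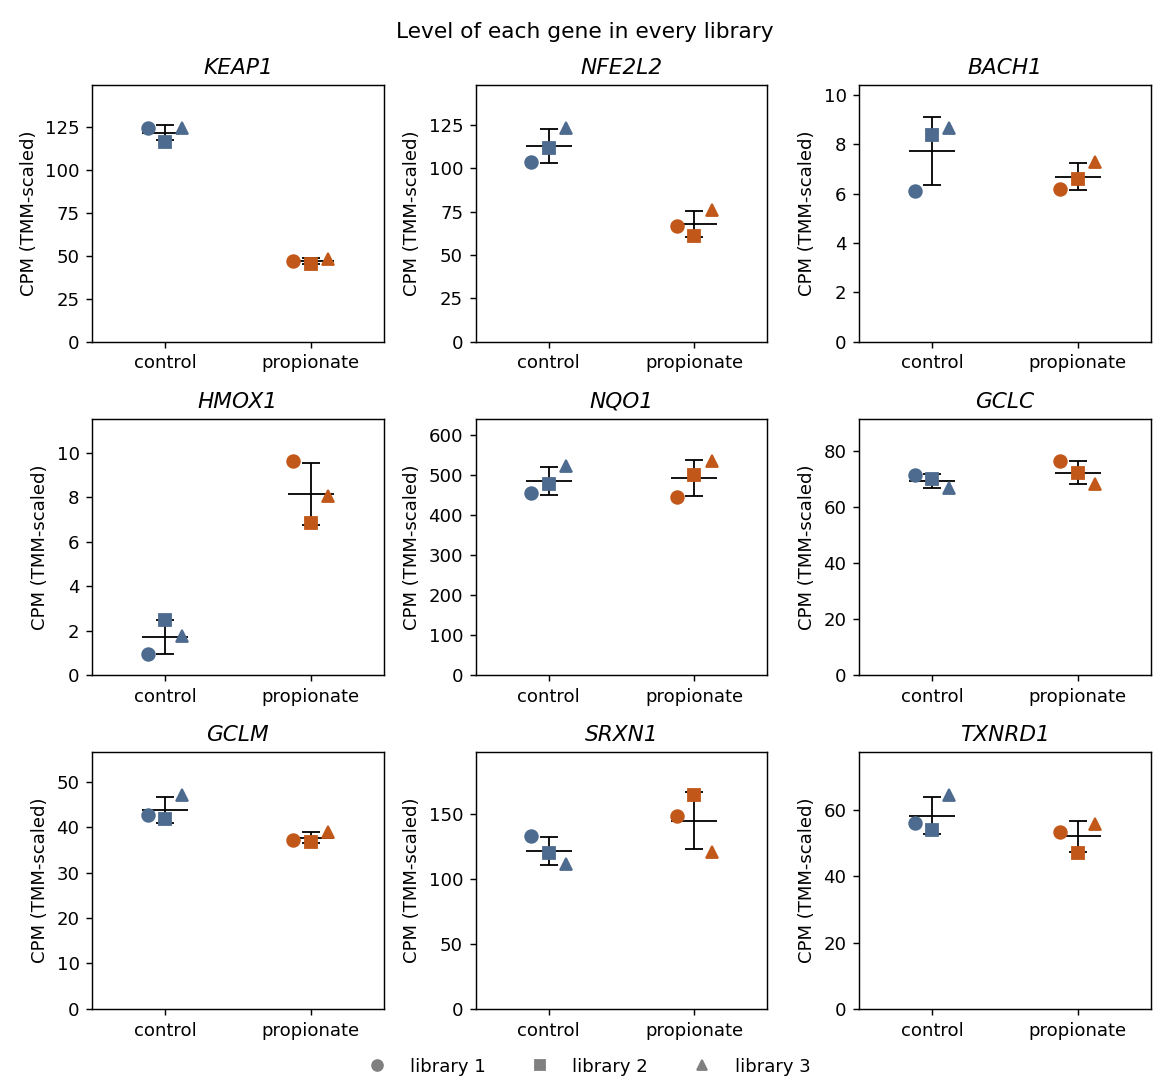
Level of each of the 9 genes in CPM (y axis, linear from 0) in the 3 control and 3 propionate libraries (x axis), with symbols for the library number, a bar at the mean and whiskers of 1 SD. KEAP1 and NFE2L2 lie lower and HMOX1 higher in every propionate library, GCLM lies slightly lower without overlap, and the other 5 genes overlap between the groups.

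KEAP1 fell more than NFE2L2, as the ratio of their reads in each library also shows, a comparison that needs no scaling between libraries. There were 0.833, 0.958 and 0.991 NFE2L2 reads per KEAP1 read in control and 1.42, 1.34 and 1.57 with propionate. The ratio was thus higher in every propionate library, at 1.44 ± 0.114 against 0.927 ± 0.0832 (SD, n = 3), or 1.56-fold. A two-sided exact permutation test gave p = 0.1, the smallest value that 3 against 3 libraries allow. The ratio restates the falls of both genes given above and is no separate evidence for them. As the genes differ in length and 3′ end, the change of the ratio can be read but not its level.

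BACH1, the repressor at antioxidant response elements, was a rare transcript and was not called. It was at 6.12, 8.39 and 8.67 CPM in control and at 6.21, 6.59 and 7.28 CPM with propionate, from 272 and 248 reads in all. The propionate libraries lay within the range of the controls. The log2 fold change was -0.21 with a 95% interval of -0.63 to 0.21 (edgeR adjusted p = 0.453), so the values leave room for a fall or a rise within this interval. BACH1 shares 45 exon bases with GRIK1 on the opposite strand and 302 with LINC00189 on the same strand, which had 0 reads.

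The small MAF proteins, which pair with NRF2 or BACH1 on DNA, went in different directions. Among 5 tested genes of the CNC and small MAF families outside the 9, 2 were higher and 1 was lower (median log2 fold change 0.03). These are 60% of a short list, beside 34.2% of all tested genes. MAFK rose 1.42-fold, from 63.8 ± 8.16 to 90.3 ± 7.27 CPM (SD, n = 3, edgeR adjusted p = 0.000807). Its log2 fold change of 0.50 was 0.21 when replicate number entered as a block (replicate block) and transcript GC content was corrected for (GC correction) (adjusted p = 0.0172). MAFF rose 1.77-fold, with 6.47, 6.25 and 6.33 CPM in control and 12.9, 10.3 and 10.6 CPM with propionate (adjusted p = 0.00129 by edgeR). MAFG was the member that fell, from 80.8, 83.9 and 91.8 CPM to 52.5, 52.2 and 54.9 CPM, which is 1.61-fold lower (edgeR adjusted p = 1.07e-05). For none of these 3 genes did the groups overlap.

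HMOX1, which encodes the inducible heme oxygenase and is a target of both NRF2 and BACH1, rose 4.69-fold from a low level. There were 11, 29 and 21 reads in the control libraries and 124, 85 and 95 reads with propionate. In CPM the controls were at 0.962, 2.48 and 1.75 and the propionate libraries at 9.62, 6.83 and 8.04, with control library 1 the lowest of all. Means were 1.73 ± 0.760 and 8.16 ± 1.40 CPM (SD, n = 3), and the log2 fold change was 2.23 (SE 0.290, 95% interval 1.63 to 2.84, edgeR adjusted p = 8.85e-06). Between same-number libraries the log2 ratio ranged from 1.46 to 3.32, so the size of the rise is less well fixed than its direction. In 127 of the 13605 tested genes the log2 fold change was as high or higher.

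HMOX2, the constitutive heme oxygenase gene, had a log2 fold change of 0.20 without overlap and was not called (edgeR adjusted p = 0.101). It passed with the replicate block (adjusted p = 0.00865) but not with the GC correction added (log2 fold change 0.04, adjusted p = 0.594). Relative to HMOX2, HMOX1 reads were higher in every propionate library than in every control library. The ratio was 0.00953, 0.0247 and 0.0213 in control and 0.0861, 0.0614 and 0.0779 with propionate, a 4.06-fold difference of the means (two-sided exact permutation p = 0.1, the smallest possible). Biliverdin reductases, which act next in heme breakdown, were also higher. BLVRA rose 2.24-fold, from 7.52, 5.99 and 5.58 CPM to 13.6, 13.7 and 15.4 CPM (edgeR adjusted p = 3.92e-05). BLVRB rose 1.31-fold, from 73.7 ± 4.36 to 96.6 ± 8.89 CPM (SD, n = 3, adjusted p = 0.00281 by edgeR).

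Of 20 tested genes of heme and iron handling, 5 were higher and 2 were lower, with a median log2 fold change of 0.16. The share called, 35%, is near the 34.2% of all tested genes. ALAD and ALAS1, enzymes at the start of heme synthesis, were 1.66-fold and 1.46-fold higher (edgeR adjusted p = 0.000231 and 0.00123). The heme transporter gene SLC48A1 passed narrowly (log2 fold change 0.25, edgeR adjusted p = 0.0464), and did not pass when any 1 library was left out, in DESeq2, without the filter on low counts or with the block and GC correction (log2 fold change 0.06). PCBP1, an iron chaperone and RNA-binding protein, fell 1.47-fold and the iron transporter gene SLC11A2 fell 1.28-fold. The ferritin genes FTH1 and FTL, named after their values were seen, were at log2 fold changes of -0.07 and 0.02 (edgeR adjusted p = 0.536 and 0.876). Both were called lower with the block and GC correction, at -0.09 and -0.13 (adjusted p = 0.042 and 0.00928). With the replicate block the list had 8 higher and 3 lower genes, where 44.5% of all tested genes were called. With the GC correction added it had 4 higher and 5 lower, where 45.0% of the 12722 genes in that fit were called and BLVRB was not (log2 fold change 0.10, adjusted p = 0.22).

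The other 5 targets of NRF2 did not pass the test, and the intervals bound how far they moved. NQO1, a quinone reductase, was at 455.8, 476.9 and 522.6 CPM in control and 444.4, 501.4 and 534.4 CPM with propionate. The groups overlapped almost fully, and the log2 fold change of 0.02 had a 95% interval of -0.15 to 0.20 (edgeR adjusted p = 0.857). GCLC, the catalytic subunit of glutamate-cysteine ligase, was at 71.4, 69.8 and 66.6 CPM and at 76.3, 72.1 and 68.3 CPM. Its log2 fold change was 0.06 with an interval of -0.13 to 0.25, again with overlapping groups (edgeR adjusted p = 0.642). TXNRD1, the cytosolic thioredoxin reductase, had 56.1, 54.0 and 64.6 CPM in control and 53.4, 46.9 and 55.9 CPM with propionate. It was lower in all 3 same-number pairs, although the groups overlapped (log2 fold change -0.16, interval -0.38 to 0.05, edgeR adjusted p = 0.242).

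GCLM and SRXN1 lay near the threshold. GCLM, the modifier subunit of glutamate-cysteine ligase, was at 42.6, 41.8 and 47.1 CPM in control and 37.2, 36.8 and 39.0 CPM with propionate, without overlap. Its log2 fold change was -0.22 (SE 0.1, 95% interval -0.43 to -0.01, edgeR adjusted p = 0.0995). With the replicate number as a block it passed (adjusted p = 0.039), and with the block and the GC correction it did not (log2 fold change -0.10, adjusted p = 0.372). SRXN1, sulfiredoxin, which repairs overoxidised peroxiredoxins, was at 133.3, 120.0 and 111.6 CPM and at 148.8, 164.7 and 121.0 CPM. Propionate library 3 lay within the control range, and the log2 fold change was 0.25 (SE 0.103, 95% interval 0.04 to 0.47, edgeR adjusted p = 0.066). The intervals of GCLM and SRXN1 exclude 0, but they are not adjusted for the number of genes tested. SRXN1 passed with the replicate block (adjusted p = 0.00251), without control library 1 (adjusted p = 0.0381) and without propionate library 3 (adjusted p = 0.00886), but not with the block and the GC correction (log2 fold change 0.15, adjusted p = 0.0542). Without propionate library 2 the log2 fold change was 0.15 (adjusted p = 0.319), and without control library 3 it was 0.19 (adjusted p = 0.208).

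**Figure D2:**
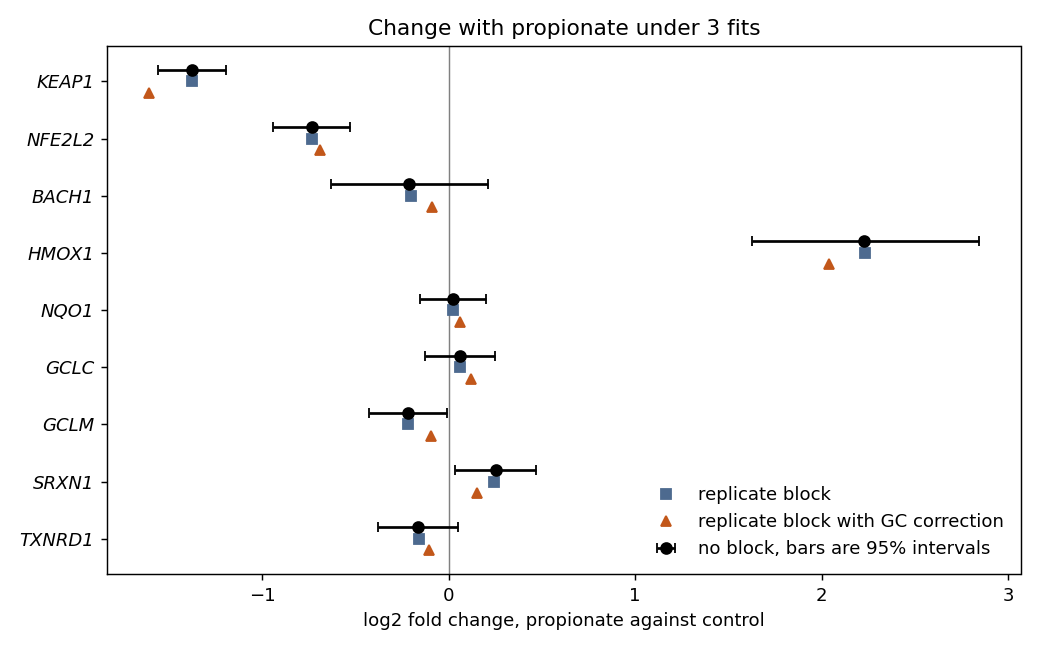
Log2 fold change of each gene (x axis, propionate against control) from the fit without a block (circles, bars are 95% intervals), with the replicate block (squares) and with the block and GC correction (triangles). KEAP1 (-1.37, -1.37 and -1.61), NFE2L2 and HMOX1 stay far from 0 in all 3, and the other 6 genes lie close to it.

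The 2 subunits of glutamate-cysteine ligase, the rate-limiting enzyme of glutathione synthesis, were also compared within each library. There were 1.68, 1.67 and 1.41 GCLC reads per GCLM read in control and 2.05, 1.96 and 1.75 with propionate. Although neither subunit was called alone in the fit without a block, every propionate library had the higher ratio (1.92 ± 0.154 against 1.59 ± 0.150, SD, n = 3). The means differed 1.21-fold, with a two-sided exact permutation p of 0.1, the smallest possible, and the comparison was chosen after the values were seen. Among 5 such within-library ratios computed, all 5 had this p, which is also their value after Benjamini-Hochberg adjustment. None of the 5 was among the planned tests.

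**Figure D3:**
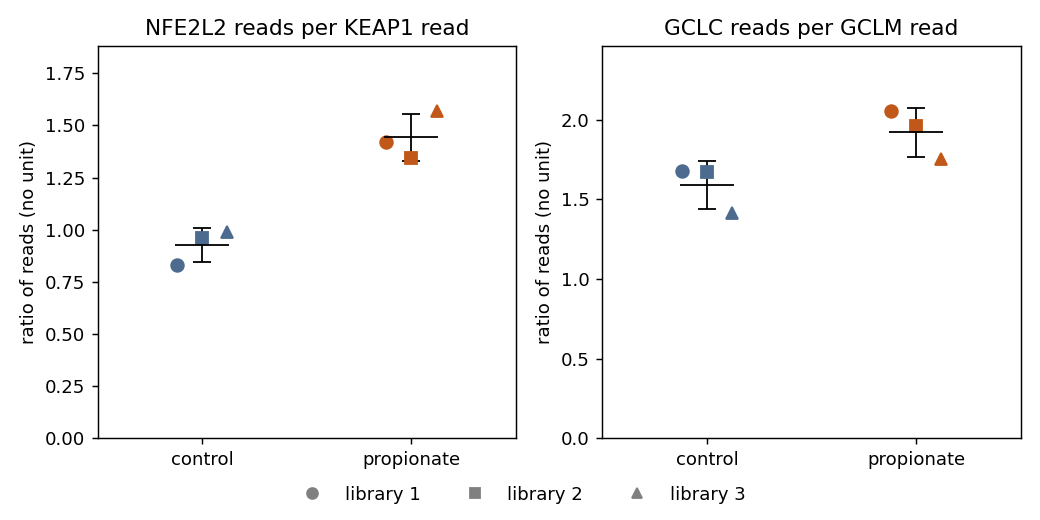
Reads of NFE2L2 per KEAP1 read (left) and of GCLC per GCLM read (right), both as ratios without unit on axes from 0, in the 3 control and 3 propionate libraries, with the mean and whiskers of 1 SD. Both ratios are higher in each propionate library than in each control library.

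The remaining genes of the pathway were taken from 7 lists. Of 136 tested genes 19 were higher and 22 were lower, or 30.1%, against 34.2% of all tested genes. Among 30 genes of glutathione synthesis and use 4 were higher and 6 were lower (median log2 fold change -0.05), or 33.3%, near the 34.2% of all tested genes. SLC7A11, the cystine importer that feeds glutathione synthesis and a known NRF2 target, fell 2.00-fold. Its level went from 93.1, 110.3 and 102.5 CPM to 43.4, 57.9 and 52.2 CPM, with all propionate libraries below all controls (edgeR adjusted p = 9.04e-07). GPX2, the glutathione peroxidase of gut epithelium, fell 1.26-fold with overlapping groups, from 294.7 ± 32.5 to 233.1 ± 28.7 CPM (SD, n = 3, adjusted p = 0.0114 by edgeR). The microsomal transferase gene MGST2 fell 1.21-fold (edgeR adjusted p = 0.0156), a call lost without control library 3 (adjusted p = 0.0642) or propionate library 1 (adjusted p = 0.0705). GPX8 fell from 1.03 ± 0.110 to 0.327 ± 0.149 CPM, or 11 to 13 reads against 2 to 5 per library (adjusted p = 0.0281 by edgeR). The GPX8 call was lost in 5 of the 6 fits that leave out a library (all but propionate library 3), in DESeq2 and without the filter on low counts (adjusted p 0.0538 to 0.117).

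Higher in the glutathione list were the glutaredoxin genes GLRX5 (1.32-fold, from 224.3 ± 6.68 to 295.1 ± 13.7 CPM, SD, n = 3) and GLRX (1.96-fold, from 4.92 ± 0.433 to 9.64 ± 1.15 CPM). GGT1, a gamma-glutamyltransferase that breaks down extracellular glutathione, rose 2.56-fold from 2.06 to 5.28 CPM (edgeR adjusted p = 0.00246), and GSTT2 1.52-fold (adjusted p = 0.0499 by edgeR). GGT1 and GSTT2 have close copies, so the assignment of their reads is uncertain. The GSTT2 call was lost in 5 of the 6 fits that leave out a library (all but control library 1), in DESeq2, after thinning and with first lines of repeated symbols (adjusted p 0.0506 to 0.191). The count of lower genes went from 6 to 2 without control library 2 or without propionate library 1, where GPX2 was lost (adjusted p = 0.0703 and 0.0808 by edgeR). Over all tested genes the count of lower genes went from 2316 to 1999 and 1864 in those fits. In the list there were 9 lower and 7 higher genes with the replicate block, and 10 and 5 with the GC correction added. Of all tested genes 44.5% were called with the block, and 45.0% of those in the fit with the correction.

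Of 23 genes of thioredoxins, peroxiredoxins and superoxide enzymes 4 were higher and 2 were lower (median log2 fold change 0.02), or 26.1% beside 34.2% of all tested genes. MSRB1, a methionine sulfoxide reductase, rose 1.91-fold, from 60.2, 56.0 and 50.6 CPM to 94.7, 110.5 and 113.1 CPM (edgeR adjusted p = 7.67e-07). The 3 sestrin genes, stress-induced regulators of metabolism, differed in direction. SESN2 rose 1.53-fold, from 41.3, 44.7 and 36.1 CPM to 62.5, 62.5 and 62.0 CPM (log2 fold change 0.62, and 0.40 with the block and GC correction), and SESN3 rose 2.40-fold, from 2.11 ± 0.247 to 5.09 ± 0.997 CPM (SD, n = 3), while SESN1 fell 1.58-fold, from 21.8 ± 3.75 to 13.8 ± 2.20 CPM. TXNIP, the thioredoxin inhibitor, rose 1.35-fold with overlapping groups (edgeR adjusted p = 0.0219), and was not called without control library 2 (adjusted p = 0.136) or propionate library 3 (adjusted p = 0.148), nor in DESeq2 (adjusted p = 0.205). TXNL1 fell 1.21-fold, a call lost without any 1 of 4 libraries (both control 1 and 2 and both propionate 1 and 2, adjusted p 0.0749 to 0.111), which left 1 lower gene, SESN1. It was also lost with the block and GC correction (adjusted p = 0.0955). The block gave 8 higher and 3 lower genes, and with the GC correction 6 and 4. Those fits called 44.5% and 45.0% of all genes in them.

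Of 29 genes of phase 2 and other NRF2 target enzymes 2 were higher and 6 were lower (median log2 fold change -0.11), or 27.6% beside 34.2% of all tested genes. ABCC3, an efflux pump for conjugates, rose 1.82-fold, from 23.2 ± 2.65 to 42.3 ± 3.73 CPM (SD, n = 3, edgeR adjusted p = 1.34e-05), and the quinone reductase gene NQO2 rose 1.33-fold (adjusted p = 0.00287 by edgeR). The falls with the smallest p were those of TRIM16L (1.44-fold), ABCC5 (1.40-fold), TRIM16 (1.40-fold) and HTATIP2 (1.29-fold), with edgeR adjusted p between 0.0039 and 0.018. By size the largest called fall was that of OSGIN1, named after its value was seen (1.54-fold, from 7.89 ± 0.676 to 5.11 ± 0.654 CPM, SD, n = 3, edgeR adjusted p = 0.022), whose call was lost in 3 of the 6 fits that leave out a library (control 2, propionate 1 and propionate 3). TRIM16L is a close copy of part of TRIM16, so their reads may not be separable. Without control library 2 there were 3 lower genes and without propionate library 1 there were 2, where the count over all tested genes went from 2316 to 1999 and 1864. TRIM16 was lost in both (adjusted p = 0.0595 and 0.0526), and HTATIP2 without propionate library 1 (adjusted p = 0.11) or control library 3 (adjusted p = 0.0514). The replicate block gave 5 higher and 11 lower genes, and with the GC correction 4 and 11. Calls also became more common over all genes, at 44.5% with the block and 45.0% with the GC correction added.

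Among 19 regulators that bind or degrade NRF2, KEAP1 or BACH1, 1 was higher and 5 were lower (median log2 fold change -0.13), or 31.6%, near the 34.2% of all tested genes. GSK3B, a kinase that marks NRF2 for a second degradation route, fell 1.48-fold, from 46.4 ± 2.72 to 31.3 ± 2.48 CPM (SD, n = 3, edgeR adjusted p = 0.00033). CUL1, the scaffold of that route's ligase, fell 1.52-fold, and RBX1, the RING subunit of both cullin ligases, fell 1.24-fold. DPP3, which competes with NRF2 for KEAP1, fell 1.23-fold (log2 fold change -0.29, and -0.51 with the block and GC correction), and CAND1, the cullin exchange factor, was the other lower gene (edgeR adjusted p = 0.0361). The CAND1 call was lost in 8 of 17 alternatives, 5 of them fits that leave out a library (all but control library 1). CUL3, named after its value was seen, was at a log2 fold change of -0.27 (edgeR adjusted p = 0.11), and it passed with the replicate block (adjusted p = 0.0116) but not with the GC correction added (log2 fold change -0.14, adjusted p = 0.164). FAM129B was the higher gene, 1.44-fold, from 139.7 ± 14.0 to 200.4 ± 16.0 CPM, a log2 fold change of 0.52, which was 0.23 with the block and GC correction (edgeR adjusted p = 0.00104). The count of lower genes was 3 without propionate library 1 and 2 without propionate library 2, where RBX1 (edgeR adjusted p = 0.0577) and DPP3 (edgeR adjusted p = 0.0639) were lost. DPP3 was also lost without control library 1 (edgeR adjusted p = 0.173), propionate library 1 (adjusted p = 0.0649) or propionate library 3 (adjusted p = 0.0519). Over all tested genes the count of lower genes went from 2316 to 1864 without propionate library 1 and to 1868 without propionate library 2.

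**Figure D4:**
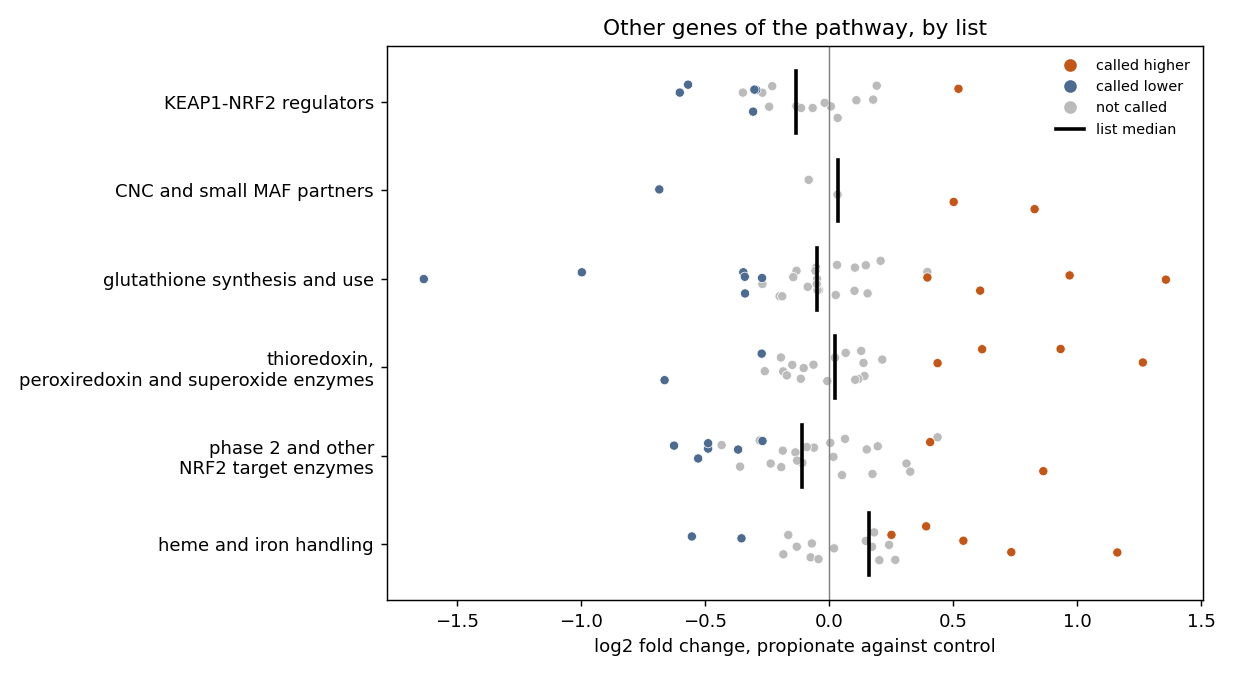
Log2 fold change of 126 tested genes of 6 of the 7 lists (x axis, propionate against control), one row per list and one point per gene, coloured by edgeR call, with the list median as a black bar. Called genes lie on both sides of 0 in all 6, and list medians run from -0.13 to 0.16.

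Changes in these libraries followed transcript GC content, and the 9 genes were placed against that trend. Tested genes were divided into 5 equal groups by GC content. In the highest group the median log2 fold change was 0.18, with 838 higher and 225 lower, and in the lowest it was -0.13, with 210 higher and 570 lower. KEAP1 lies in the highest group (60.3% GC in the reference transcript of GENCODE release 29), and it fell where most called genes rose. With each library's GC trend removed in the fit with the replicate block, its log2 fold change was -1.61 (edgeR adjusted p = 3.25e-16). NFE2L2 (45.6% GC) and HMOX1 (58.1% GC) stayed called in that fit, at -0.69 (adjusted p = 3.6e-09) and 2.04 (adjusted p = 1.57e-06). GCLM and BACH1 are in the lowest group, and their log2 fold changes moved toward 0, to -0.10 and -0.09.

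**Figure D5:**
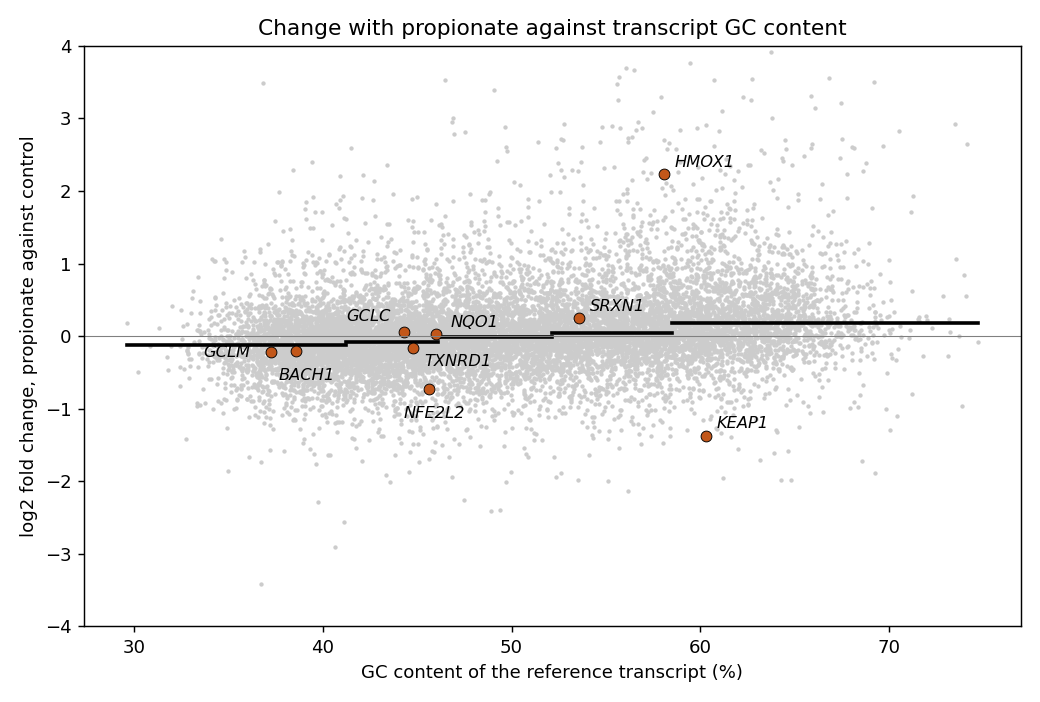
Log2 fold change (y axis, shown to 4 on either side of 0, with 14 genes outside) against the GC content of the reference transcript (x axis, percent) for 12722 tested genes (grey), with the median of each of 5 equal groups by GC content (black bars) and the 9 genes labelled. KEAP1 at 60.3% GC lies at -1.37, below a median of 0.18 in its group, and HMOX1 at 58.1% lies at 2.23.

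The genes most like KEAP1 over the 6 libraries, among 9286 genes of at least 10 CPM, were ZNF562, SFT2D3 and PTGDR (Pearson r of log2 CPM between 0.998 and 0.999). Those most like NFE2L2 were ID3, PARVA and KIF5B (r between 0.996 and 0.999), and those most like HMOX1 were FBXO31, ATP13A2 and SPEF2 (r between 0.993 and 0.999). The libraries share their group difference, so high values are common: 636 genes exceeded 0.95 with KEAP1, 404 with NFE2L2 and 160 with HMOX1. A high r does not mean a change of like size. In the order named, log2 fold changes were -0.88, -1.03 and -1.94 beside -1.37 for KEAP1. They were -1.08, -0.48 and -0.25 beside -0.73 for NFE2L2, and 0.22, 0.81 and 0.44 beside 2.23 for HMOX1.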

How the data were processed

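Libraries from LS 174T RNA, 3 untreated and 3 with propionate, were made with a Lexogen Quant-Seq kit, per the labels' protocols. For each library the authors deposited a table of whole-number read counts by symbol, not normalized. Bowtie2, edgeR and the builds hg19 and GRCh37 are named in the submitters' processing notes without role or version. Which counter, strand setting and annotation were used is not stated there or in the other labels. Repeated symbols were summed (286 symbols, none of the 9 genes). No line lacked a symbol.

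Counts of all 13605 genes kept by filterByExpr were tested with edgeR 4.0.16 (R 4.3.3), quasi-likelihood test, TMM factors, no covariate, both directions, Benjamini-Hochberg adjusted over all of them. Intervals are for the log2 fold change, from its SE and the fit's degrees of freedom. The method was tested on simulated data. Depth was 11603288 to 12746170 reads per library. The tables record no molecular identifiers, so reads may not be independent molecules.

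Replicate numbers come from the marks in the titles. Deviations of same-number libraries correlated at 0.238, 0.393 and 0.44 over 9286 genes, above the limit of 0.1. The numbers were therefore taken as pairs in the fits with the block. The fit without a block and the permutation tests of the ratios did not use the pairs. This pairing comes from the data, and no label states a shared day. Alternatives were other scalings, filters and thresholds, DESeq2 1.42.0, limma-voom (limma 3.58.1), the block, the block with a spline correction on transcript GC (12722 genes), thinning, first lines of repeated symbols and leaving out each library. Named genes are the 9, and from each list up to 4 called genes per direction with the smallest p, with exceptions stated. The 9 genes and the lists were chosen with earlier results of these data known. For 1 of the 7 lists the genes are not reported here, and it enters the totals only.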

Additional observations from a re-analysis of the deposited data

How the results depend on the processing

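KEAP1, NFE2L2 and HMOX1 kept direction and call in all 17 alternatives run for each, with log2 fold changes of -1.61 to -1.35, -0.82 to -0.66 and 1.94 to 2.57. BACH1, GCLC, NQO1 and TXNRD1 were called in none of theirs, and NQO1, between -0.0384 and 0.0917 when single libraries were left out, changed sign without control library 1 (-0.0218) and propionate library 3 (-0.0384). GCLM was called in 1 alternative, the replicate block, and SRXN1 in 6. The number of the 9 genes called was 5 with the replicate block, where 6054 genes were called in all (44.5%, against 34.2% without it). The number higher was 2, adding SRXN1, with upper-quartile factors, library totals only, no filter on low counts and the block, and it ranged from 1 to 2 when libraries were left out (2 without control library 1 or propionate library 3). Genes called among the 7 lists went from 41 to 69 with the block, 62 with the block and GC correction (5731 genes in all, 45.0%), and 25 at an adjusted p under 0.01. At that threshold 3009 genes were called in all, 1424 of them lower. The block changed no other call among the 9 genes. Of 35 named list genes, 23 kept their call in all alternatives run. BACH1 and HMOX1 rest on 272 and 61 control reads. Causes of these differences were not tested.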
